A study of Homo sapiens with 36 samples.

Results

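The response of 22Rv1 cells to low oxygen without drug was read from 6 of the 36 arrays of the series. 22Rv1 is a human prostate carcinoma line of epithelial cells, derived from a xenograft that had relapsed in castrated mice, and the study labels it as radiation sensitive. The 6 arrays were chosen by their titles: 3 hypoxia arrays, from cells kept at 0.2% oxygen for 24 h with solvent, and 3 normoxia arrays, from cells kept at normal oxygen with solvent. The titles name a solvent, while the treatment label gives only the hypoxia for the first group and "untreated" for the second. All 6 come from cells in the same medium with fetal calf serum, taken before any irradiation. A further 3 pairs of groups, of 3 arrays each, serve for comparison. They are 22Rv1 at 0.2% oxygen and in normoxia, both with 1 µM vorinostat for 24 h, an inhibitor of histone deacetylases, and DU145 and PC-3, lines from a brain and a bone metastasis of prostate cancer, each at 0.2% oxygen for 24 h and in normoxia with solvent. DU145 is labelled radiation resistant and PC-3 radiation sensitive. Each is an established cell line, and the replicates are not stated to come from separate cultures, so p-values speak only of the scatter among these arrays, which may be technical.

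Cells sense oxygen through prolyl hydroxylases that mark the alpha subunits of hypoxia-inducible factor (HIF) for destruction. At low oxygen the marking slows, the alpha subunits pair with ARNT, and the pair binds short DNA elements near genes for glucose uptake, glycolysis, mitophagy, blood vessel growth and matrix assembly. Severe hypoxia is also known to slow translation, mitochondrial respiration and DNA replication, and hypoxic tumour cells of the prostate and of other organs are known for resisting radiation.

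On each of the 6 arrays 15627 to 16233 of 47323 probes were above background. Hypoxia array 3 stood apart in its raw signal, with a median of 93.98 against 113.3 to 116.5 on the other 5, a difference that normalisation removes. After normalisation the correlation over genes was 0.9943 to 0.9946 between hypoxia arrays, 0.9949 to 0.9954 between normoxia arrays and 0.9793 to 0.9822 across the groups. Between replicates a gene had a median standard deviation of 0.112 in hypoxia and 0.1 in normoxia (log2 scale, n = 3 each). Of the markers of prostate luminal epithelium with a named probe, 7 of 8 were above background on all 6 arrays, among them KLK2, FOLH1 and HOXB13, and KLK3 was above background on none. The fibroblast markers were above background on no array (5 of 6, with LUM on 1 normoxia array), as were 4 of 4 endothelial markers, and of 4 leukocyte markers CD14 was above background on 5 arrays and the others on none. Of the neuroendocrine markers, CHGB and SYP were above background on all 6 arrays, CHGA on 5 and INSM1 on 3.

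Values are normalised signals on the log2 scale, and changes are hypoxia minus normoxia on that scale ± standard error (n = 3 arrays each) from 1 limma model. A gene is called when its Benjamini-Hochberg adjusted p over all 12360 genes tested is below 0.05, and "rose" and "fell" are used of called genes only. In bulk RNA, fewer cells with a transcript and less of it per cell cannot be told apart. A gene counts as above background on an array when any of its probes is, while its value comes from 1 probe. For a gene with several probes, the probe read may therefore itself be below background. Where no array of 1 group was above background, the fold is a lower bound, written "at least N-fold". For a list's median "with bounds", such genes take their bound, and any gene below background in both groups is not counted. Some lists hold no gene with a bound, and there the median moves only through the genes not counted. Each called gene named here for this comparison had all 3 hypoxia arrays beyond all 3 normoxia arrays, except RPL37 and UGT2B17. For the leading rises and falls this was a condition of the choice and not a finding.

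At 0.2% oxygen, 1223 genes rose and 1269 fell in 22Rv1, or 9.89% and 10.3% of the genes tested (20.2% together). The numbers were close, but the sizes were not: 223 genes rose at least 2-fold (1.8%) and 9 fell at least 2-fold (0.0728%). These counts use fitted changes, also for genes below background in 1 group. On the same basis 53 rose at least 4-fold, 11 rose at least 8-fold, and 0 fell as much as 4-fold. The median change was 0.61 among the genes that rose, -0.47 among those that fell and -0.02 over all genes. With median scaling in place of quantile normalisation 745 genes rose and 1252 fell, so that the share of rises among the calls was 37.3%, against 49.1% with quantile normalisation. Without hypoxia array 3 the calls numbered 984 higher and 993 lower. The groups did not overlap in 45% of all genes tested. The counts of each gene list below are to be read beside the 9.89% of all genes that rose and the 10.3% that fell.

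**Figure D1:**
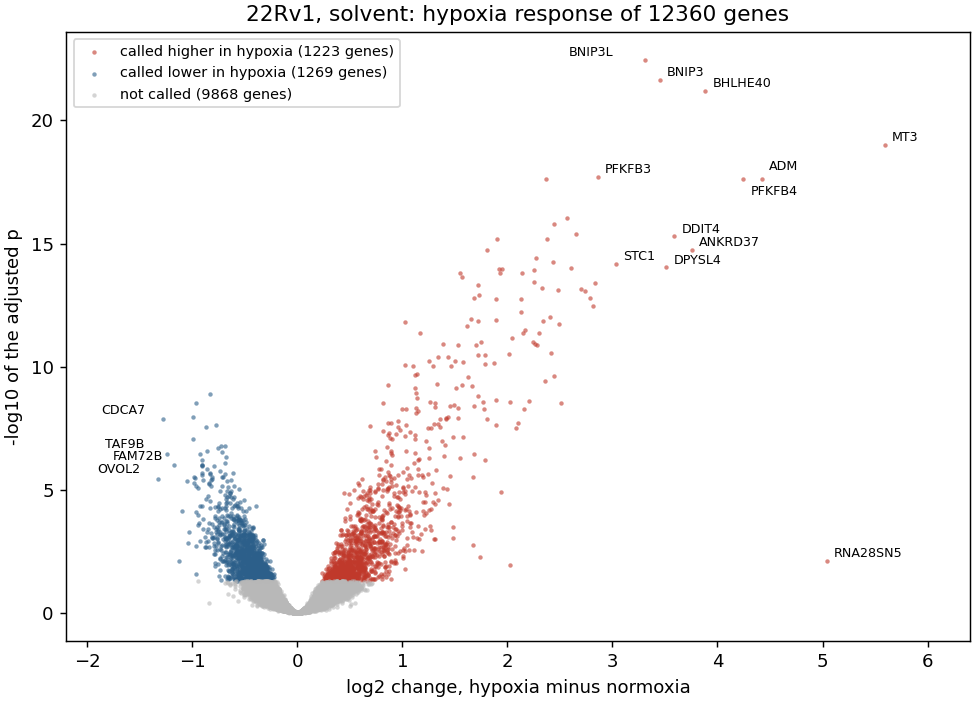
Each point is a gene, with its log2 change (hypoxia minus normoxia) on the x axis and -log10 of its limma adjusted p on the y axis. The fitted rises reach 5.59 (MT3, whose normoxia arrays were below background) and the called falls end at -1.33 (OVOL2), and RNA28SN5 lies far to the right at a weak adjusted p of 0.00771.

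The largest fitted rise was in MT3, which encodes a metal-binding metallothionein best known from brain. MT3 had 10.49, 10.77 and 10.15 in hypoxia, against 4.91, 4.78 and 4.94 in normoxia. It was above background on 3 of 3 hypoxia arrays and on no normoxia array, and was at least 36.45-fold higher in hypoxia (adjusted p = 9.69e-20). Of the other metallothioneins tested none was called, and their changes ran from -0.43 (MT1M) to 0.39 (MT1X). ADM, the gene for the vessel-widening peptide adrenomedullin, followed among protein-coding genes with 11.37, 11.69 and 11.05 in hypoxia, against 6.97, 7.07 and 6.81 in normoxia (4.42 ± 0.17, adjusted p = 2.29e-18). PFKFB4, a bifunctional enzyme that sets the level of an activator of glycolysis, had 11.97, 12.18 and 11.82 in hypoxia, against 7.61, 7.84 and 7.79 in normoxia (4.24 ± 0.17, adjusted p = 2.29e-18). In both genes every hypoxia array lay more than 3 log2 units above every normoxia array.

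BHLHE40, a transcriptional repressor that also acts in the circadian clock, had 9.85, 10.18 and 9.94 in hypoxia, against 6.12, 6.18 and 6.01 in normoxia (3.89 ± 0.11, adjusted p = 6.29e-22). ANKRD37, an ankyrin repeat gene known as a HIF target, had 8.80, 8.87 and 8.99 in hypoxia, against 5.30, 5.10 and 4.98 in normoxia, and with no normoxia array above background it was at least 12.15-fold higher (adjusted p = 1.83e-15). DDIT4, which encodes the mTOR inhibitor REDD1, had 12.24, 12.39 and 12.20 in hypoxia, against 8.70, 8.63 and 8.73 in normoxia (3.59 ± 0.17, adjusted p = 4.99e-16). None of these groups overlapped, which the choice of the leading genes required. The mitophagy receptors BNIP3 (3.45 ± 0.09, adjusted p = 2.29e-22) and BNIP3L (3.31 ± 0.08, adjusted p = 3.47e-23) rose with the smallest standard errors of the leading genes. DPYSL4 (3.51 ± 0.19), a cytoskeletal regulator and p53 target, PFKFB3 (2.86 ± 0.11), an isoenzyme of PFKFB4, and STC1 (at least 5.683-fold higher), the secreted hormone stanniocalcin, completed the 12 largest by fitted change (largest adjusted p = 9.2e-15). The bound of STC1 lies below the measured folds of ALDOC, COXFA4L2, NDRG1 and HK2, so its place among the 12 is not established. RNA28SN5, a copy of the 28S ribosomal RNA gene, had 11.39, 11.99 and 11.53 in hypoxia, against 6.71, 6.47 and 6.61 in normoxia. The groups did not overlap, but the model, which pools the spread over all 12 groups, gave a change of 5.04 ± 1.35 (adjusted p = 0.00771). The gene is repeated in the genome and its probe cannot tell the copies apart.

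**Figure D2:**
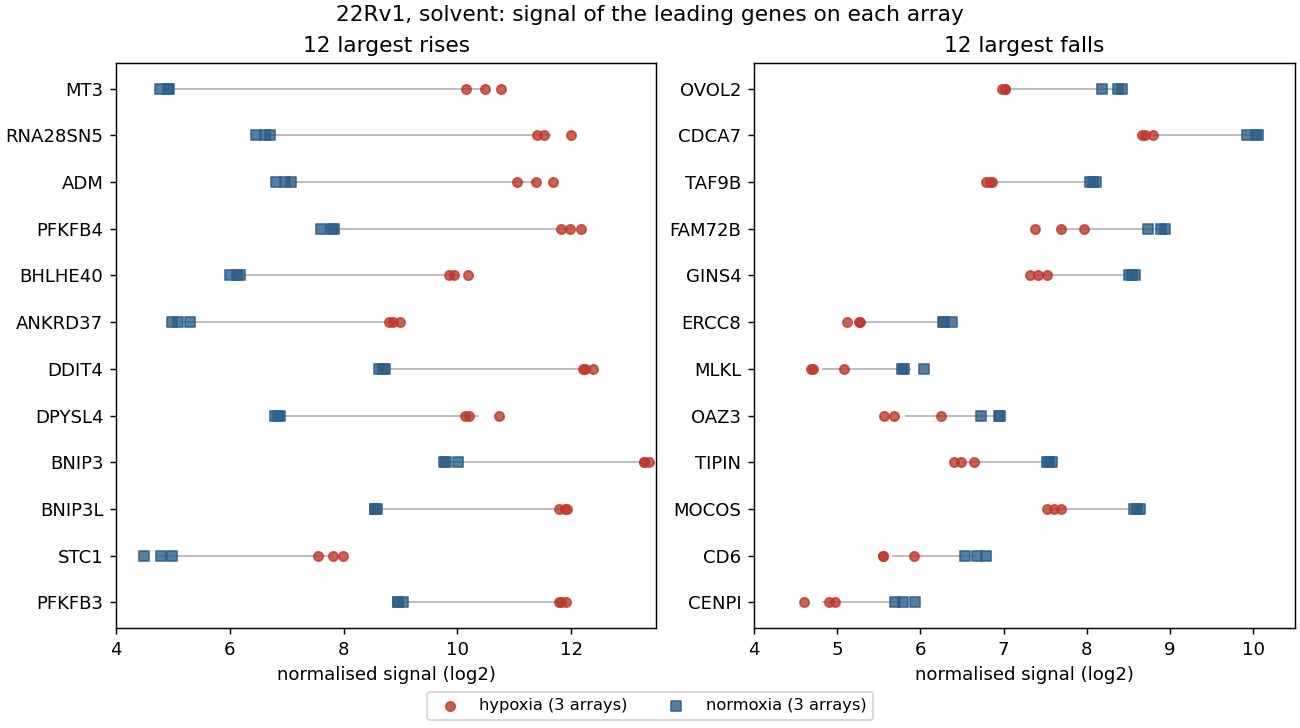
Normalised log2 signal (x axis) of the 12 largest rises and 12 largest falls by fitted change on each 22Rv1 solvent array, with 3 hypoxia arrays (red circles) and 3 normoxia arrays (blue squares) per gene and a line between the group means. The genes were chosen to have groups that do not overlap. The means differ by up to 5.59 fitted log2 units for rises (MT3, below background in normoxia) and 1.33 for falls (OVOL2).

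The falls were shallower. OVOL2, a zinc finger repressor that keeps cells epithelial, had 7.02, 6.98 and 7.02 in hypoxia, against 8.42, 8.38 and 8.19 in normoxia (-1.33 ± 0.19, adjusted p = 3.55e-06). CDCA7, a MYC and E2F target that helps maintain DNA methylation, had 8.71, 8.79 and 8.66 in hypoxia, against 9.92, 10.03 and 10.06 in normoxia (-1.28 ± 0.13, adjusted p = 1.31e-08). Every hypoxia array lay below every normoxia array in both, which the choice of the leading falls required. TAF9B (-1.25 ± 0.15), a subunit of general transcription complexes, FAM72B (-1.18 ± 0.15), MOCOS (-1.0 ± 0.10), a molybdenum cofactor enzyme, and CD6 (-0.99 ± 0.11), named for a lymphocyte receptor, also fell (largest adjusted p = 9.67e-07). A second probe of FAM72B gave -0.44, which was not called. Further falls were in the replication genes GINS4 (-1.13 ± 0.30, adjusted p = 0.0079) and TIPIN (-1.03 ± 0.21, adjusted p = 0.000519), in ERCC8 (-1.09 ± 0.19, adjusted p = 6.98e-05), which acts in transcription-coupled repair, and in OAZ3 (-1.05 ± 0.23, adjusted p = 0.00149), an antizyme. One other probe of ERCC8 gave -0.03, not called, and another -0.78, called. MLKL, the executioner of necroptosis, and CENPI, a kinetochore protein, were above background on no hypoxia array and were at least 1.51-fold and at least 1.441-fold lower (adjusted p = 4.42e-06 and 5.44e-06). With such bounds their place among the 12 largest falls is not established. Leaving out hypoxia array 3 kept the call of each of these 24 leading genes and moved their changes by -0.07 to 0.16.

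To show the DNA next to which HIF could bind, the 250 bases before the start site are printed for the 6 genes with the largest called rises in the HIF-related lists. The sequences are from RefSeq (GRCh38.p14), on the gene's own strand: ADM at chr11:10304823-10305072 (plus strand), PFKFB4 at chr3:48556804-48557053 (minus strand), BHLHE40 at chr3:4979187-4979436 (plus strand), ANKRD37 at chr4:185396591-185396840 (plus strand), DDIT4 at chr10:72273674-72273923 (plus strand) and BNIP3 at chr10:131981924-131982173 (minus strand). Capitals mark the core letters of hypoxia response elements, ACGTG or GCGTG, or their reverse complements CACGT and CACGC. Where CACGTG is read, ACGTG and CACGT overlap and count as 2 matches.
ADM: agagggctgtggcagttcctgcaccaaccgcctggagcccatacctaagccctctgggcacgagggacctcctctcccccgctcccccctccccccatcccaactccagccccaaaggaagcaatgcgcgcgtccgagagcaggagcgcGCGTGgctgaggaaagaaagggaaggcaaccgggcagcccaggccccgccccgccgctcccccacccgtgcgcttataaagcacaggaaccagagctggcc
PFKFB4: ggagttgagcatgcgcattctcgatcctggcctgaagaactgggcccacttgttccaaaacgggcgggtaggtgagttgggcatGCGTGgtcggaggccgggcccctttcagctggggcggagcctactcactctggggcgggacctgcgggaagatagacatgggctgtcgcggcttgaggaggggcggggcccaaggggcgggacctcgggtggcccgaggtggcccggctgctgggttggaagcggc
BHLHE40: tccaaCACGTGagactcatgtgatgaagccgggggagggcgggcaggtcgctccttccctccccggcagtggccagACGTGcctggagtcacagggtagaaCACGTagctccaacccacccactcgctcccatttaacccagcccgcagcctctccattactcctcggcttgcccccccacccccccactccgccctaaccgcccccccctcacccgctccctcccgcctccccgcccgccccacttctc
ANKRD37: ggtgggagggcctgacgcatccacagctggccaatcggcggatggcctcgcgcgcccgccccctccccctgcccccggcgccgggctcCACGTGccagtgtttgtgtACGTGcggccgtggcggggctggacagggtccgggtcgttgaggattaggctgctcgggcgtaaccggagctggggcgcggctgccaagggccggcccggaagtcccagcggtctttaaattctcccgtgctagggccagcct
DDIT4: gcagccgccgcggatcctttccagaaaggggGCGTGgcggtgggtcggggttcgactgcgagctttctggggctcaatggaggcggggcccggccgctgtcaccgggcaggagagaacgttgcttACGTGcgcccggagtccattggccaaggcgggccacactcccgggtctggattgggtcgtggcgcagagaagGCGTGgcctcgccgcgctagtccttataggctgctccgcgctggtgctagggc
BNIP3: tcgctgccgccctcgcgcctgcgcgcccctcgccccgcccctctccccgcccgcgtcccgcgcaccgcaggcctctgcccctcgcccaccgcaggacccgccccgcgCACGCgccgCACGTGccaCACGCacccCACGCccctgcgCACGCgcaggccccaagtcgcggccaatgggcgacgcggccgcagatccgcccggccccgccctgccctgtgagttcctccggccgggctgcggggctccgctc
BNIP3 held 6 matches, BHLHE40 held 4, ANKRD37 and DDIT4 held 3 each, and ADM and PFKFB4 held 1 each. A match is a run of letters, not a shown binding site. Of the windows of 9898 tested genes with a promoter in the table, 57% held at least 1 match, as did 60.2% of those of genes that rose (980 with a promoter) and 59.3% of those of genes that fell (1064). For ACGTG alone, on both strands, these shares were 23.3%, 29.9% and 21.6%, and for GCGTG alone they were 45%, 44.4% and 47.4%. Over all 27305 promoters listed there, 43.1% held a match of either kind and 18.7% one of ACGTG. Of the 223 genes that rose at least 2-fold 176 have a promoter listed, and 62.5% of these held a match (ACGTG 36.4%, GCGTG 41.5%). Of the 53 that rose at least 4-fold only 41 have one, and 70.7% of these held a match (ACGTG 51.2%, GCGTG 43.9%). Whether these shares differ from those of all genes was not tested.

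The HIF subunits themselves showed little change in transcript. Among HIF subunits and oxygen sensors, 2 rose and 0 fell out of 10 tested, leaving 8 not called (median log2 change 0.13, or 0.05 with bounds); 1 further entry was not above the detection filter. HIF1A, the main oxygen-regulated subunit, had 7.70, 7.21 and 7.73 in hypoxia, against 7.53, 7.56 and 7.13 in normoxia, which overlapped (0.14 ± 0.22, adjusted p = 0.725), and EPAS1, which encodes HIF-2 alpha, was not called either (-0.03 ± 0.19, adjusted p = 0.942). Both risers restrain HIF. EGLN1, the prolyl hydroxylase PHD2, had 8.04, 8.05 and 8.26 in hypoxia, against 6.97, 6.76 and 6.74 in normoxia (1.30 ± 0.11, adjusted p = 9.43e-11). CITED2, which competes with HIF for the coactivator p300, rose by 0.70 ± 0.13, adjusted p = 0.000222, and this call ended with median scaling (adjusted p = 0.0509), with adjusted p = 2.17e-06 to 0.0509 over its 18 alternatives. ARNT, the common partner, was above background on 1 hypoxia array and on no normoxia array, and EGLN3 (PHD3) on none.

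Most genes of glucose uptake and glycolysis rose. In this list, 14 rose and 0 fell out of 18 tested, leaving 4 not called (median log2 change 1.03, or 1.04 with bounds), beside 9.89% of all genes that rose and a median of -0.02. SLC2A1, the glucose transporter GLUT1, had 10.37, 10.60 and 10.36 in hypoxia, against 8.01, 8.24 and 8.32 in normoxia (2.25 ± 0.13, adjusted p = 1.2e-14). HK2, the hexokinase that commits glucose to the pathway, rose by 2.70 ± 0.16, and the aldolase ALDOC by 2.82 ± 0.18 (largest adjusted p = 3.46e-13). A second probe of HK2 gave 1.24, called. PGK1 (1.69), PKM (1.53), GPI (1.44), ENO2 (1.44), PFKP (1.12), ALDOA (1.04), PGAM1 (0.90), PFKL (0.69), HK1 (0.53) and ENO1 (0.42) rose by the log2 changes given. LDHA, which turns pyruvate into lactate, had 14.26, 14.16 and 14.23 in hypoxia, against 13.14, 13.18 and 13.23 in normoxia (1.03 ± 0.07, adjusted p = 1.45e-12), and 2 further probes of it gave 1.32 and 2.19. PFKM, TPI1, GAPDH and SLC2A3 were not called, with changes of -0.11 to 0.24, and SLC2A3 was above background on no array.

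Enzymes that divert carbon also rose. For the metabolic switch and pH control, 7 rose and 0 fell out of 10 tested, leaving 3 not called (median log2 change 1.29, or 1.33 with bounds); 2 entries have no named probe and 1 was not above the filter. Next to PFKFB4 and PFKFB3, described above, PDK3, which switches off pyruvate dehydrogenase, had 10.23, 10.25 and 10.17 in hypoxia, against 8.17, 7.82 and 7.81 in normoxia (2.28 ± 0.17, adjusted p = 1.27e-11). A second probe of PDK3 gave 0.98, called. The glycogen genes GBE1 (1.75), GYS1 (1.33) and PGM1 (1.25) and the carbonic anhydrase CA12 (0.59) rose as well. PDHA1, a subunit of pyruvate dehydrogenase, was not called (-0.23).

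In mitophagy and mitochondrial adaptation, 6 rose and 1 fell out of 10 tested, leaving 3 not called (median log2 change 0.84); 1 entry was not above the filter. BNIP3, which marks mitochondria for removal, had 13.27, 13.36 and 13.28 in hypoxia, against 10.01, 9.80 and 9.76 in normoxia, and BNIP3L, its relative, 11.88, 11.93 and 11.79 in hypoxia, against 8.55, 8.59 and 8.55 in normoxia. The 2 groups of each lay more than 3 log2 units apart. COXFA4L2 (formerly NDUFA4L2), a small mitochondrial protein known to lower respiration in hypoxia, had 9.68, 9.49 and 8.95 in hypoxia, against 6.54, 6.68 and 6.54 in normoxia (2.79 ± 0.18, adjusted p = 1.68e-13). FAM162A (1.79), MXI1 (1.07), a MYC antagonist, and LONP1 (0.60), a mitochondrial protease, rose, and the iron-sulfur scaffold ISCU fell (-0.63). Subunits of the respiratory chain moved little: 0 rose and 3 fell out of 39 tested, leaving 36 not called (median log2 change -0.10). The shares over all genes were 9.89% rises and 10.3% falls. In this list 4 further entries have no named probe. The 3 falls were in ATP5MC1 (-0.40 ± 0.09, adjusted p = 0.00194), a subunit of ATP synthase, and in NDUFS7 (-0.26 ± 0.08, adjusted p = 0.0258) and NDUFB6 (-0.24 ± 0.08, adjusted p = 0.0342) of complex I. The call for NDUFS7 was lost in 5 of 18 alternatives (adjusted p = 0.00278 to 0.0959 over all), among them without any 1 of hypoxia arrays 1 and 2 or normoxia arrays 1 and 2 (0.0674 to 0.0959). That for NDUFB6 was lost in 6 of 18 alternatives (adjusted p = 0.00407 to 0.105 over all), among them without any 1 of hypoxia arrays 1, 2 and 3 or normoxia arrays 1 and 2 (0.0518 to 0.105). A second probe of ATP5MC1 gave -0.71, called. The falls numbered 1 without hypoxia array 1 or hypoxia array 2 or normoxia array 2. Over 18 alternatives they numbered 1 to 12, the most with array weights, so their number is not settled. NDUFB1 of complex I, which is not in this list, also fell and is described below.

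Secreted factors divided. Of the secreted and angiogenic factors, 8 rose and 0 fell out of 13 tested, leaving 5 not called (median log2 change 0.49, or 0.90 with bounds); 1 entry has no named probe and 2 were not above the filter. VEGFA, the main driver of vessel growth, had 8.02, 8.06 and 7.93 in hypoxia, against 6.30, 6.41 and 5.87 in normoxia (1.80 ± 0.19, adjusted p = 1.27e-08). ANGPTL4, a secreted inhibitor of lipoprotein lipase, had 10.87, 11.24 and 10.95 in hypoxia, against 8.92, 9.03 and 8.86 in normoxia (2.08 ± 0.23, adjusted p = 3.14e-08), though its other probes gave 0.42, not called, and 0.85, called. STC1 had 7.81, 8.0 and 7.56 in hypoxia, against 4.49, 4.79 and 4.98 in normoxia, with no normoxia array above background. LOX, which crosslinks collagen, was at least 3.433-fold higher (adjusted p = 3.04e-09). STC2 (1.31), MIF (0.45) and EFNA1 (0.41) rose beside ADM, while EDN1 (0.49), IGFBP3 (0.27), APLN (0.11), IGFBP1 (0.05) and PGF (-0.12, above background on no array) were not called. Among collagen hydroxylases and collagen folding genes, 4 rose and 0 fell out of 7 tested, leaving 3 not called (median log2 change 1.89). The prolyl hydroxylase subunit P4HA1 had 10.18, 10.11 and 10.02 in hypoxia, against 7.45, 7.37 and 7.54 in normoxia (2.65 ± 0.13, adjusted p = 4.16e-16). P4HA2 (2.44 ± 0.11) and the lysyl hydroxylases PLOD2 (2.38 ± 0.12) and PLOD1 (1.89) rose too, while P4HB, PLOD3 and the chaperone SERPINH1 were not called (0.29, -0.01 and -0.34). One further probe of P4HA2 gave 0.05, not called, and another 2.32, called.

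Of the other HIF target genes, 23 rose and 0 fell out of 26 tested, leaving 3 not called (median log2 change 1.23, or 1.21 with bounds); 2 entries have no named probe and 2 were not above the filter. Beside BHLHE40, ANKRD37 and DDIT4, the largest were NDRG1 (2.74 ± 0.17), a stress gene that androgens also induce, and AK4 (2.44), POFUT4 (2.41) and ZNF395 (2.13). The chemokine receptor CXCR4 (at least 1.79-fold higher), the lipid droplet gene HILPDA (1.15) and the oxidoreductase ERO1A (1.73) rose as well, and ANG (0.27), BHLHE41 (0.37, above background on no array) and KLF7 (-0.03) were not called. The JmjC histone demethylases need oxygen for their reaction, and several are known HIF targets. Here 10 rose and 0 fell out of 14 tested, leaving 4 not called (median log2 change 0.61); 1 entry has no named probe and 1 was not above the filter. KDM3A, which removes methyl groups from lysine 9 of histone H3, had 8.20, 8.10 and 7.90 in hypoxia, against 5.42, 6.07 and 5.81 in normoxia (2.30 ± 0.17, adjusted p = 4.2e-12). KDM7A (2.03 ± 0.19, adjusted p = 2.61e-09) and KDM5B (1.40 ± 0.16, adjusted p = 1.48e-07) followed, then KDM4C (1.0), KDM4B (0.99) and KDM6B (at least 1.52-fold higher), while KDM5C (0.06), KDM6A (0.25), JMJD6 (0.20) and RIOX2 (-0.01) were not called. Without hypoxia array 3 the rises numbered 22 in the target list and 9 among the demethylases.

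**Figure D3:**
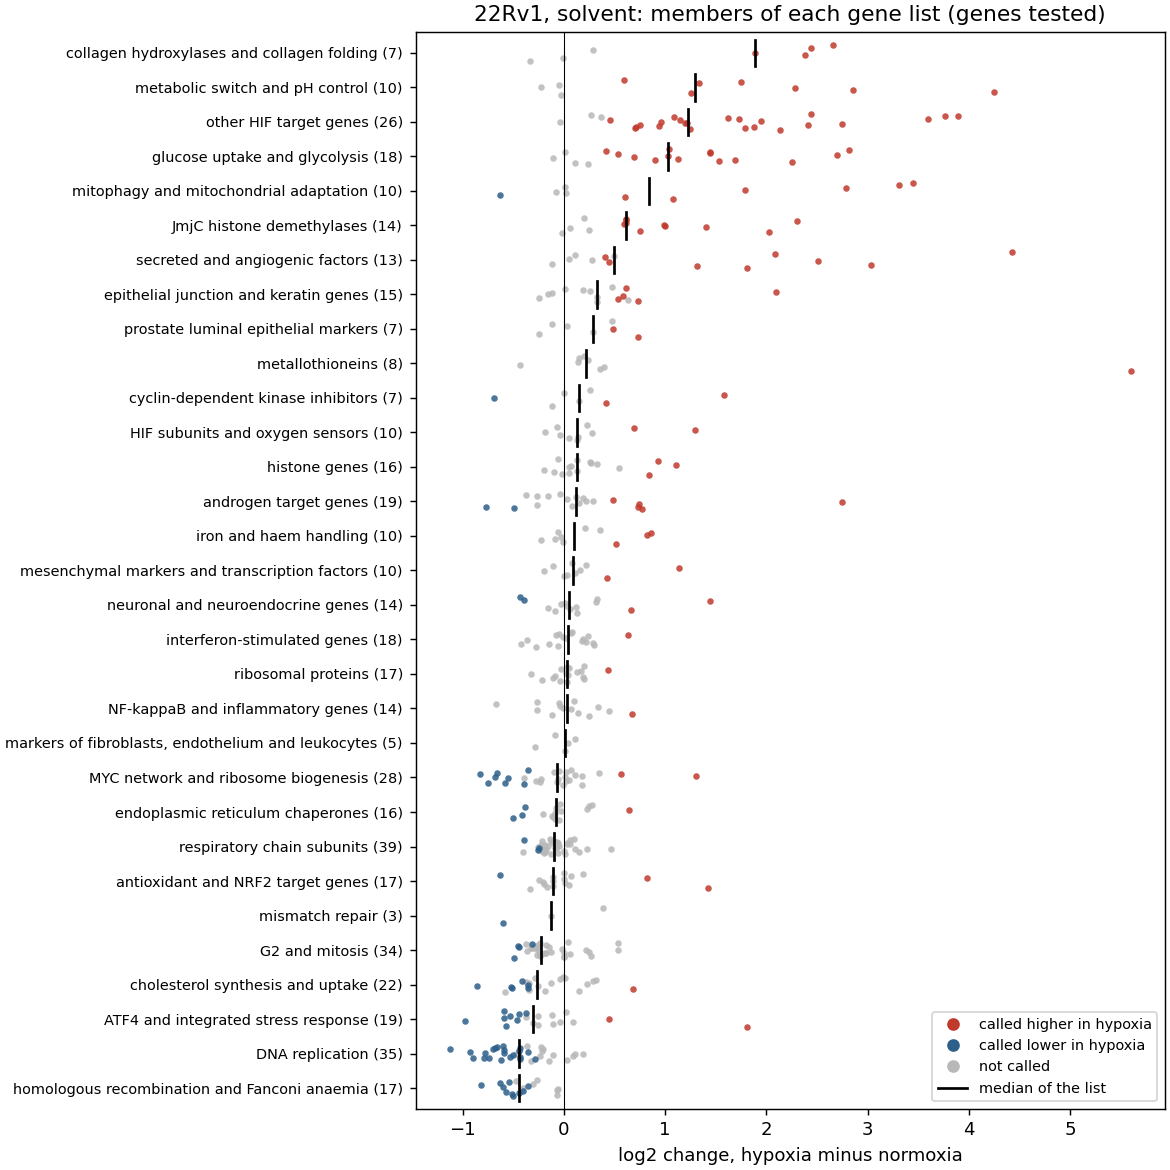
Log2 change (hypoxia minus normoxia, x axis) of every tested gene of 31 lists in 22Rv1, red where called higher, blue where called lower and grey where not called, with a bar at the list's median and the number tested in brackets. The lists of HIF-related genes lie to the right (medians up to 1.89), and those of DNA replication and homologous recombination to the left (-0.44 and -0.45).

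Many genes of DNA replication fell. Of this list, 0 rose and 21 fell out of 35 tested, leaving 14 not called (median log2 change -0.44), beside 10.3% of all genes that fell; 1 entry has no named probe and 1 was not above the filter. MCM5, a subunit of the replicative helicase, had 8.92, 9.36 and 9.18 in hypoxia, against 10.06, 10.16 and 10.02 in normoxia (-0.93 ± 0.20, adjusted p = 0.00124). RFC2, a subunit of the clamp loader, had 8.24, 8.42 and 8.37 in hypoxia, against 9.19, 9.28 and 9.25 in normoxia (-0.90 ± 0.16, adjusted p = 0.000146), with a second probe at -0.50, called. GINS4, of the GINS complex that moves with the helicase, had 7.41, 7.32 and 7.52 in hypoxia, against 8.58, 8.51 and 8.55 in normoxia. The groups did not overlap in any of these 3. ORC1 and RFC3 (both -0.78), RFC4 (-0.73), GINS3 (-0.70), GINS2 (-0.68), CDT1 (-0.66), RRM2 (-0.62), CDC45 (-0.60) and MCM7 (-0.60) also fell. TYMS, thymidylate synthase, was not called (-0.32 ± 0.12, adjusted p = 0.0623). Without hypoxia array 3, 19 replication genes fell.

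Repair by homologous recombination and the Fanconi anaemia pathway showed the same direction: 0 rose and 10 fell out of 17 tested, leaving 7 not called (median log2 change -0.45, or -0.46 with bounds); 5 entries have no named probe and 3 were not above the filter. FANCG (-0.82 ± 0.17, adjusted p = 0.000562) and FANCL (-0.60 ± 0.10, adjusted p = 4.67e-05) belong to the Fanconi core complex, and EXO1 (-0.63 ± 0.11, adjusted p = 8.43e-05) resects DNA ends. BRCA1 had 7.83, 7.98 and 7.79 in hypoxia, against 8.43, 8.39 and 8.42 in normoxia (-0.54 ± 0.14, adjusted p = 0.00456), though a second probe of it was not called (-0.36). Of 3 mismatch repair genes tested PMS2 fell (-0.60 ± 0.12, adjusted p = 0.000329), with a second probe not called (-0.12), and MSH3 (0.39) and MSH6 (-0.13) were not called; 2 entries have no named probe and 2 were not above the filter. Of the G2 and mitosis genes, 0 rose and 4 fell out of 34 tested, leaving 30 not called (median log2 change -0.22), close to the 10.3% of all genes that fell, and the falls numbered 3 to 13 over 18 alternatives. The 4 that fell were UBE2C (-0.49 ± 0.12, adjusted p = 0.00278) and CDC20 (-0.44 ± 0.10, adjusted p = 0.00222), which act in mitotic protein destruction, CCNA2 (-0.45 ± 0.11, adjusted p = 0.00248), and BIRC5 (-0.32). The falls numbered 6 without hypoxia array 1. The mitotic cyclin CCNB1 was not called (-0.29 ± 0.11, adjusted p = 0.0644).

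For the cyclin-dependent kinase inhibitors, 2 rose and 1 fell out of 7 tested, leaving 4 not called (median log2 change 0.14, or 0.00 with bounds); 1 entry has no named probe. CDKN1C, which encodes p57, had 7.79, 7.99 and 7.65 in hypoxia, against 6.23, 6.29 and 6.17 in normoxia (1.58 ± 0.18, adjusted p = 7.13e-08). CDKN1A, which encodes p21, was not called (0.26 ± 0.23, adjusted p = 0.478), although its arrays did not overlap. CDKN2A fell (-0.69 ± 0.14, adjusted p = 0.000792), with a second probe not called (-0.43). CDKN2D rose (0.42 ± 0.14, adjusted p = 0.0292), a call that ended with median scaling (adjusted p = 0.26), without hypoxia array 2 (0.0929), without hypoxia array 3 (0.0727), without normoxia array 1 (0.081) and without normoxia array 3 (0.098), with adjusted p = 0.00242 to 0.26 over its 18 alternatives.

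The integrated stress response, in which ATF4 turns on genes for amino acid supply when translation slows, did not rise as a group. Of its genes, 2 rose and 8 fell out of 19 tested, leaving 9 not called (median log2 change -0.30, or -0.37 with bounds), and 2 were not above the filter. ATF4 itself had 12.14, 12.06 and 11.96 in hypoxia, against 12.40, 12.35 and 12.53 in normoxia (-0.37 ± 0.11, adjusted p = 0.0135). Its call ended with the mean of all detected probes (adjusted p = 0.0809), without hypoxia array 3 (0.0677) and without normoxia array 3 (0.0746), with adjusted p = 0.000564 to 0.0809 over its 18 alternatives. One other probe of ATF4 gave -0.08, not called, and another -0.40, called. The serine synthesis genes PSPH (-0.98 ± 0.14, adjusted p = 3.16e-06) and PHGDH (-0.59 ± 0.13, adjusted p = 0.000917) fell, as did ASNS (-0.59), TRIB3 (-0.58), PSAT1 (-0.46), CEBPB (-0.45) and the death-promoting factor DDIT3 (-0.54 ± 0.15, adjusted p = 0.0108). A second probe of PSPH was not called (-0.50), and the call for DDIT3 ended without normoxia array 3 (adjusted p = 0.0501), with adjusted p = 0.000309 to 0.0501 over its 18 alternatives. The risers were VEGFA and PPP1R15A (0.45). The rises numbered 1 without hypoxia array 2 or normoxia array 1 or normoxia array 3, and the falls numbered 5 without normoxia array 3. In the endoplasmic reticulum, 1 rose and 3 fell out of 16 tested, leaving 12 not called (median log2 change -0.08). Of all genes, 9.89% rose and 10.3% fell. In this list 1 entry has no named probe and 1 was not above the filter. The chaperone HSPA5 was not called (-0.09 ± 0.13, adjusted p = 0.69), EDEM1 rose (0.65 ± 0.14, adjusted p = 0.00124), and SDF2L1 (-0.50 ± 0.09, adjusted p = 0.000155), CRELD2 (-0.39) and MANF (-0.42 ± 0.14, adjusted p = 0.0296) fell. The call for MANF ended without hypoxia array 2 (adjusted p = 0.199), without normoxia array 1 (0.121) and without normoxia array 3 (0.0516), with adjusted p = 0.0052 to 0.199 over its 18 alternatives. The falls numbered 1 without hypoxia array 2 and 2 without normoxia array 1 or normoxia array 3.

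MYC was not called (0.18 ± 0.14, adjusted p = 0.404). In the MYC network and ribosome biogenesis, 2 rose and 8 fell out of 28 tested, leaving 18 not called (median log2 change -0.06, or -0.07 with bounds); 2 entries have no named probe and 1 was not above the filter. MXD4, which opposes MYC at its partner MAX, had 9.71, 9.77 and 9.70 in hypoxia, against 8.30, 8.41 and 8.56 in normoxia (1.31 ± 0.14, adjusted p = 2.15e-08), and MXD1 rose by 0.56, while MAX fell by 0.66. The ribosome assembly genes MRTO4 (-0.83 ± 0.13, adjusted p = 2.7e-05), NOLC1 (-0.68), RRS1 (-0.58) and NOP16 (-0.55) fell, and so did RRP9 (-0.75 ± 0.25, adjusted p = 0.0298), whose call was lost in 6 of 18 alternatives (adjusted p = 9.15e-05 to 0.0912 over all), among them without any 1 of hypoxia arrays 1, 2 and 3 or normoxia arrays 1, 2 and 3 (0.051 to 0.0912). The rises numbered 1 without any 1 of the 6 arrays, and the falls numbered 5 without normoxia array 2. Cholesterol synthesis uses oxygen at several steps. Of the list of cholesterol synthesis and uptake, which also holds the fatty acid gene SCD, 1 rose and 6 fell out of 22 tested. This left 15 not called (median log2 change -0.27), while 5 entries have no named probe and 1 was not above the filter. MVK, mevalonate kinase, had 6.14, 6.18 and 6.11 in hypoxia, against 6.93, 7.20 and 6.88 in normoxia (-0.86 ± 0.17, adjusted p = 0.000528), and NSDHL (-0.52 ± 0.10, adjusted p = 0.00028), SC5D (-0.52), FDPS (-0.41), MSMO1 (-0.35) and PMVK (-0.35) fell too. The 1 riser was SCD, a fatty acid desaturase and not a cholesterol gene (0.68 ± 0.13, adjusted p = 0.000326). The falls numbered 3 without normoxia array 1 and 4 without hypoxia array 2 or normoxia array 2 or normoxia array 3. Over 18 alternatives they numbered 3 to 11.

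Of the genes of iron and haem handling, 3 rose and 0 fell out of 10 tested, leaving 7 not called (median log2 change 0.10); 2 entries have no named probe and 1 was not above the filter. The ferritin light chain FTL (0.86 ± 0.09, adjusted p = 1.9e-08), the haem oxygenase HMOX1 (0.82 ± 0.17, adjusted p = 0.000536) and the transferrin receptor TFRC (0.52 ± 0.13, adjusted p = 0.00361) rose. In the antioxidant list, 2 rose and 1 fell out of 17 tested, leaving 14 not called (median log2 change -0.10), and 1 entry has no named probe. TXNIP, an inhibitor of thioredoxin that also limits glucose uptake, had 11.19, 11.26 and 10.87 in hypoxia, against 9.64, 9.86 and 9.54 in normoxia (1.42 ± 0.21, adjusted p = 8.79e-06). It rose beside HMOX1, and the glutathione synthesis gene GCLM fell (-0.63 ± 0.14, adjusted p = 0.00202), with a second probe not called (-0.50). Of the histone genes, 3 rose and 0 fell out of 16 tested, leaving 13 not called (median log2 change 0.13, or 0.06 with bounds); 1 entry has no named probe and 5 were not above the filter. The risers were H2BC21 (1.11 ± 0.26, adjusted p = 0.00282), H2AC18 (0.93 ± 0.25, adjusted p = 0.00677) and H4C8 (at least 1.216-fold higher, adjusted p = 0.0356). The call for H4C8 was lost in 9 of 18 alternatives (adjusted p = 0.000311 to 0.372 over all), among them without any 1 of hypoxia arrays 1, 2 and 3 or normoxia arrays 1, 2 and 3 (0.0638 to 0.101). Histone genes of 1 family are near copies of each other, so their probes may read several.

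Some genes of epithelial and luminal identity were higher in hypoxia. Among epithelial junction and keratin genes, 5 rose and 0 fell out of 15 tested, leaving 10 not called (median log2 change 0.33), and 4 were not above the filter. DSP, the desmosome linker desmoplakin, had 9.88, 9.72 and 9.64 in hypoxia, against 7.83, 7.59 and 7.53 in normoxia (2.10 ± 0.22, adjusted p = 1.95e-08). Further probes of DSP gave 1.14 and 1.12, both called. KRT8 (0.74 ± 0.14, adjusted p = 0.000255), CLDN3 (0.61 ± 0.12, adjusted p = 0.000469), GRHL2 (0.58) and KRT19 (0.54) rose. The cadherin CDH1 (0.48), EPCAM (-0.12) and the keratin KRT18 (-0.25, the lowest change of the list) were not called. Of the mesenchymal genes, 2 rose and 0 fell out of 10 tested, leaving 8 not called (median log2 change 0.09, or 0.22 with bounds), with LGALS1 (1.14 ± 0.10, adjusted p = 1.9e-10), a galectin, and VIM (0.43 ± 0.12, adjusted p = 0.0125), an intermediate filament gene; 3 were not above the filter. A second probe of VIM gave 1.63, called. The call for the first ended with median scaling (adjusted p = 0.199), without hypoxia array 2 (0.076) and without normoxia array 1 (0.0813), with adjusted p = 4.14e-08 to 0.199 over its 18 alternatives. The rises numbered 1 without hypoxia array 2 or normoxia array 1. Of the androgen target genes, 5 rose and 2 fell out of 19 tested, leaving 12 not called (median log2 change 0.12); 3 entries have no named probe and 3 were not above the filter. NDRG1, ZBTB16 (0.77 ± 0.15, adjusted p = 0.000529), SLC45A3 (0.74) and TMPRSS2 (0.73) rose, as did HOXB13 (0.48 ± 0.14, adjusted p = 0.0149), a prostate lineage factor whose higher call ended with median scaling (adjusted p = 0.111), without hypoxia array 1 (0.0585) and without normoxia array 1 (0.0627), with adjusted p = 0.000664 to 0.111 over its 18 alternatives. UGT2B15 (-0.77 ± 0.16, adjusted p = 0.000523) and UGT2B17 (-0.49), which inactivate androgens and are close copies of each other, fell. The rises numbered 3 without hypoxia array 1, and the falls numbered 1 without hypoxia array 2 or normoxia array 1 or normoxia array 3. Of the prostate luminal markers 2 rose and 0 fell out of 7 tested, leaving 5 not called (median log2 change 0.29), KRT8 and HOXB13 being the risers, or 1 without hypoxia array 1. The median of these markers ran from 0.07 to 0.43 over 18 alternatives, and KRT18 was again the lowest. In this list 2 entries have no named probe and 1 was not above the filter.

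Among neuronal and neuroendocrine genes, 2 rose and 2 fell out of 14 tested, leaving 10 not called (median log2 change 0.05, or 0.12 with bounds). Of all genes, 9.89% rose and 10.3% fell. In this list 1 entry has no named probe and 3 were not above the filter. The risers were ENO2, the glycolytic enolase that is also a neuroendocrine marker (1.44 ± 0.15, adjusted p = 1.13e-08), and TUBB3 (0.66 ± 0.18, adjusted p = 0.00807), a neuronal tubulin. The call for TUBB3 ended with median scaling (adjusted p = 0.0999), with adjusted p = 0.000104 to 0.0999 over its 18 alternatives. DDC (-0.39) and CHGA (-0.43 ± 0.15, adjusted p = 0.044) fell. The call for CHGA was lost in 9 of 18 alternatives (adjusted p = 0.006 to 0.218 over all), among them without any 1 of hypoxia arrays 2 and 3 or normoxia arrays 1 and 2 (0.0923 to 0.218). The rises numbered 3 without normoxia array 1, and the falls numbered 0 without hypoxia array 3 or normoxia array 1 or normoxia array 2 and 1 without hypoxia array 1 or hypoxia array 2.

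Inflammatory, interferon and ribosomal protein genes were nearly all without a call. In the NF-kappaB list 1 rose and 0 fell out of 14 tested, leaving 13 not called (median log2 change 0.03, or 0.05 with bounds), in the interferon list 1 rose and 0 fell out of 18 tested, leaving 17 not called (median log2 change 0.04, or 0.00 with bounds), and among ribosomal proteins 1 rose and 0 fell out of 17 tested, leaving 16 not called (median log2 change 0.03). Without a named probe were 1, 2 and 2 entries of these lists, and 3, 0 and 1 were not above the filter. In both groups 8 of the inflammatory and 7 of the interferon genes tested were below background, so the lack of a call is no measurement for them. Each list had 1 riser. The call for PTGS2, an inducible cyclooxygenase (0.68 ± 0.22, adjusted p = 0.0255), was lost in 8 of 18 alternatives (adjusted p = 0.000536 to 0.0938 over all), among them without any 1 of hypoxia arrays 1, 2 and 3 or normoxia arrays 1 and 2 (0.0556 to 0.0938). The call for IFI6 (0.63 ± 0.22, adjusted p = 0.0407) was lost in 11 of 18 alternatives (adjusted p = 0.000575 to 0.224 over all), among them without any 1 of hypoxia arrays 1, 2 and 3 or normoxia arrays 1, 2 and 3 (0.0588 to 0.116). The call for RPL37 (0.43 ± 0.15, adjusted p = 0.0401) was lost in 10 of 18 alternatives (adjusted p = 0.00414 to 0.281 over all), among them without any 1 of hypoxia arrays 1 and 3 or normoxia arrays 1, 2 and 3 (0.0545 to 0.281). A further probe of each of these 3 genes was not called (0.19, 0.26 and 0.00). Of the markers of fibroblasts, endothelium and leukocytes, 0 rose and 0 fell out of 5 tested, leaving 5 not called (median log2 change 0.01, or -0.04 with bounds), 9 were not above the filter and 1 has no named probe. The sum of the 5 tested, on the linear scale, was 133.2 to 155.6 in hypoxia and 143 to 153.8 in normoxia. Without hypoxia array 3 the counts of several lists changed: the inflammatory, interferon and ribosomal risers were lost, 2 histone genes, 1 kinase inhibitor, 4 androgen target genes, 4 iron genes and 2 metallothioneins rose, and 9 recombination genes, 5 cholesterol genes and neither of the 2 neuroendocrine genes fell.

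The next question was how far the response of 22Rv1 matched that of the other lines. The 3 responses share no arrays. Hypoxia was followed by 1823 calls in DU145 (969 higher, 854 lower, 14.7% of genes) and 2086 in PC-3 (908 higher, 1178 lower, 16.9%). Of the 1223 genes that rose in 22Rv1, 360 also rose in DU145, which is 29.4% of the rises of 22Rv1 and 37.2% of those of DU145. With PC-3 342 rises were shared, 28% of those of 22Rv1 and 37.7% of those of PC-3. Falls were shared for 367 genes with DU145 (28.9% of 22Rv1, 43% of DU145) and 512 with PC-3 (40.3% and 43.5%). Of all genes, 7.84% rose and 6.91% fell in DU145, and 7.35% rose and 9.53% fell in PC-3. Called or not, 82.7% of the rises and 79% of the falls of 22Rv1 had the same sign in DU145. In PC-3 these shares were 79.3% and 87.3%. Over all genes tested, changes in 22Rv1 had a Pearson correlation of 0.468 with those in DU145 and 0.496 with those in PC-3. In all 3 lines 217 genes rose and 256 fell, and 34 genes called in 22Rv1 moved the other way in DU145 and 27 in PC-3.

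The differences were then tested themselves. The response differed between 22Rv1 and DU145 in 712 genes (5.76%, with 2.76% of all genes more positive in 22Rv1 and 3% less) and between 22Rv1 and PC-3 in 641 (5.19%, with 3.16% more positive and 2.03% less); with median scaling these counts were 327 and 339. Of the genes called in 22Rv1, 486 also had a called difference from DU145, and in 273 of them the rise was larger in 22Rv1. For PC-3 the numbers were 425 and 303. Of 738 genes that rose in 22Rv1 and were called higher in neither other line, both differences were called in 136. MT3, at least 36.45-fold higher in hypoxia in 22Rv1, was above background on no solvent array of DU145 or PC-3, so that no change was measured there, and the tests of its differences were called (largest adjusted p = 9.87e-15). COXFA4L2 was likewise above background on no solvent array of DU145 or PC-3, and its differences were called (largest adjusted p = 3.97e-09). SNCB, the neuronal protein beta-synuclein, had 7.29, 7.48 and 7.39 in hypoxia, against 4.52, 4.55 and 4.59 in normoxia in 22Rv1. It was at least 4.296-fold higher there (adjusted p = 3.79e-14) and above background on no solvent array of DU145 or PC-3. Its other probes gave 2.72, 0.52 and 0.76, each called.

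**Figure D4:**
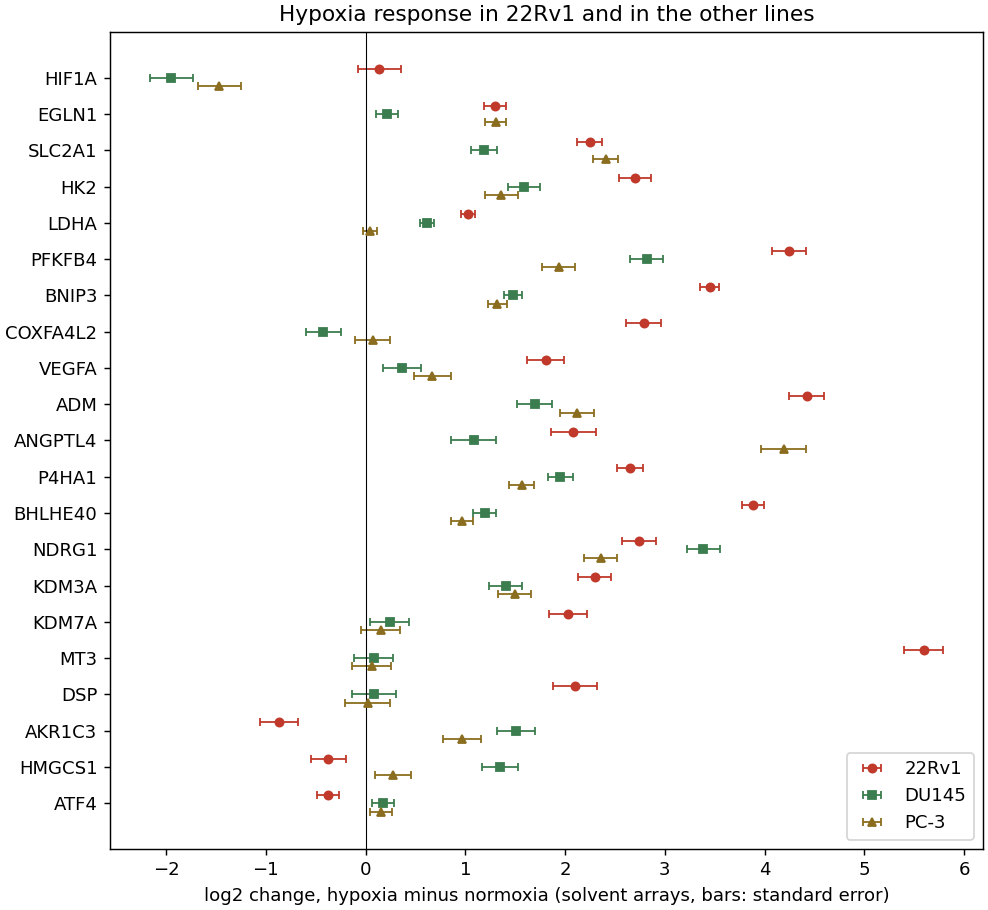
Log2 change (hypoxia minus normoxia, solvent arrays, x axis) of 21 genes in 22Rv1 (red circles), DU145 (green squares) and PC-3 (brown triangles), with standard errors from limma. MT3, COXFA4L2, KDM7A and DSP moved in 22Rv1 and were not called in the other lines, HIF1A fell in DU145 and PC-3 and was not called in 22Rv1, and AKR1C3 fell in 22Rv1 and rose in both others.

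ADM, BHLHE40 and BNIP3 rose in all 3 lines and by more in 22Rv1. ADM changed by 1.69 ± 0.17 in DU145 and 2.12 ± 0.17 in PC-3, against which 22Rv1 differed by 2.73 ± 0.25 and 2.30 ± 0.25. BHLHE40 changed by 1.19 ± 0.11 and 0.97 ± 0.11 there (differences 2.69 ± 0.16 and 2.92 ± 0.16), and BNIP3 by 1.48 ± 0.09 and 1.32 ± 0.09 (1.97 ± 0.13 and 2.13 ± 0.13; largest adjusted p of these 6 differences 9.27e-08). This did not hold for every HIF target: of the 26 other HIF target genes the difference was positive and called in 9 against DU145 and in 9 against PC-3, and negative and called in 1 each. NDRG1 changed by 2.74 ± 0.17 in 22Rv1, against 3.39 ± 0.17 in DU145 (difference not called, -0.64 ± 0.24, adjusted p = 0.114). VEGFA was not called in DU145 (0.37 ± 0.19, adjusted p = 0.206) and rose in PC-3 (0.67 ± 0.19, adjusted p = 0.0121). Levels also differed between lines: BHLHE40 averaged 9.99 in hypoxia and 6.10 in normoxia in 22Rv1, 10.74 and 9.55 in DU145, and 12.31 and 11.34 in PC-3, so that 22Rv1 was lowest in both conditions. ADM averaged 11.37 in hypoxia and 6.95 in normoxia in 22Rv1, 11.03 and 9.33 in DU145, and 11.53 and 9.41 in PC-3. Its larger rise in 22Rv1 thus started from a lower normoxia level and ended at a similar hypoxia level. HIF1A fell in DU145 (-1.95 ± 0.22, adjusted p = 1.68e-07) and PC-3 (-1.46 ± 0.22, adjusted p = 1.48e-05), and its response in 22Rv1 differed from both (2.09 ± 0.31, adjusted p = 2.85e-05, and 1.60 ± 0.31, adjusted p = 0.00103). RAB31, a vesicle traffic GTPase, had 8.25, 8.60 and 7.97 in hypoxia, against 5.89, 5.89 and 6.25 in normoxia in 22Rv1 (2.27 ± 0.17, adjusted p = 1.17e-11) and fell in PC-3 (-0.48 ± 0.17, adjusted p = 0.0494).

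Several genes responded less in 22Rv1 or in the opposite direction. AKR1C3, which makes active androgens from weak precursors, had 8.40, 8.19 and 8.33 in hypoxia, against 9.27, 9.13 and 9.13 in normoxia in 22Rv1 (-0.87 ± 0.19, adjusted p = 0.00129) and rose in DU145 (1.51 ± 0.19, adjusted p = 1.34e-06) and PC-3 (0.97 ± 0.19, adjusted p = 0.000571). AKR1C genes are close copies, so its probe may read relatives. KISS1R, the kisspeptin receptor, rose in 22Rv1 (1.76 ± 0.17, adjusted p = 2.59e-09) and by more in DU145 (3.84 ± 0.17, difference -2.08 ± 0.24, adjusted p = 3.61e-07). ANGPTL4 rose by more in PC-3 (4.19 ± 0.23, difference -2.11 ± 0.32, adjusted p = 4.35e-05). ASB9 (-0.75 ± 0.14) and PDGFRL (-0.58 ± 0.17) fell in 22Rv1 and rose in DU145 (1.13 ± 0.14 and 1.04 ± 0.17), and TPBG (-0.57 ± 0.14) and TMEM158 (-0.45 ± 0.12) fell in 22Rv1 and rose in PC-3 (1.16 ± 0.14 and 1.03 ± 0.12; largest adjusted p of the 4 falls 0.0128). Further probes of ASB9 and TPBG were not called in 22Rv1.

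Of the lists, cholesterol synthesis had the most called differences from DU145. Over all genes 7.84% rose and 6.91% fell in DU145, and 7.35% rose and 9.53% fell in PC-3. In DU145, of this list, 13 rose and 0 fell, leaving 9 not called (median log2 change 0.48). In PC-3 9 rose and 1 fell, leaving 12 not called (median log2 change 0.26). Beside these stand 1 rise, in SCD, and 6 falls in 22Rv1 (3 falls without normoxia array 1). The difference from DU145 was called in 12 of the 22 genes and that from PC-3 in 8, each less positive in 22Rv1. HMGCS1, which makes the precursor of mevalonate, was not called in 22Rv1 (-0.37 ± 0.18, adjusted p = 0.148) and rose in DU145 (1.35 ± 0.18, adjusted p = 2.85e-06, difference -1.72 ± 0.25, adjusted p = 2.85e-05). In the stress response list, 2 genes rose and 2 fell in DU145 and 3 rose and 2 fell in PC-3, and the difference of ATF4 itself was called against both (-0.55 ± 0.15, adjusted p = 0.0275, and -0.53 ± 0.15, adjusted p = 0.038). For DNA replication, 1 rose and 2 fell, leaving 32 not called (median log2 change -0.10) in DU145 and 0 rose and 8 fell, leaving 27 not called (median log2 change -0.14) in PC-3, with 7 and 1 called differences, each less positive in 22Rv1. In glycolysis, 15 rose and 0 fell, leaving 3 not called (median log2 change 0.85) in DU145 and 14 rose and 1 fell, leaving 3 not called (median log2 change 0.58) in PC-3, with called differences of 5 higher and 1 lower, and 6 higher and 0 lower. LDHA was not called in PC-3 (0.04 ± 0.07, adjusted p = 0.75). Among the demethylases 4 genes rose in DU145 and 7 in PC-3, and KDM7A differed from both lines (by 1.79 ± 0.27 and 1.88 ± 0.27). DSP was not called in either (0.08 ± 0.22 in DU145 and 0.02 ± 0.22 in PC-3), and its differences were called (largest adjusted p = 6.69e-05).

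Within 22Rv1 the hypoxia response could also be set against that of cells given vorinostat, on other arrays. With vorinostat 2695 genes were called (1190 higher, 1505 lower, 21.8%). Of the rises with solvent 800 were shared, 65.4% of those with solvent and 67.2% of those with vorinostat, and of the falls 853, 67.2% and 56.7%. Of all genes, 9.63% rose and 12.2% fell with vorinostat. Called or not, 97% of the rises and 98% of the falls with solvent had the same sign with vorinostat. The test of the difference called 90 genes (0.728%), 72 of them with a change that was more positive with solvent (0.583%) and 18 less (0.146%). With median scaling it called 72, 68 of them more positive, and the median difference over all genes was 0.12, against 0.01 with quantile normalisation.

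ADM rose by 2.91 ± 0.17 with vorinostat (difference 1.51 ± 0.25, adjusted p = 0.000671), from a higher normoxia level there: its means were 11.37 in hypoxia and 6.95 in normoxia with solvent, and 11.41 in hypoxia and 8.50 in normoxia with vorinostat. RAB31 (0.69 ± 0.17, difference 1.58 ± 0.24, adjusted p = 0.000349) also rose less with vorinostat. FGD5, an exchange factor for small GTPases, was at least 2.217-fold higher with solvent, where no normoxia array was above background (fitted difference 1.40 ± 0.13, adjusted p = 1.8e-07). SNCB rose by 1.31 ± 0.17 with vorinostat, and with its solvent normoxia arrays below background the call of its fitted difference (1.52 ± 0.24, adjusted p = 0.000403) ended with the mean of all detected probes (adjusted p = 0.0683), with no background correction (0.303) and with the authors' processed values (0.3), with adjusted p = 7.35e-06 to 0.303 over its 23 alternatives. STC1 was above background on no normoxia array with solvent or with vorinostat, so neither change is more than a bound. Its fitted difference was negative (-1.10 ± 0.23, adjusted p = 0.0129), and this call ended with median scaling (adjusted p = 0.218), without hypoxia solvent array 3 (0.0512), without hypoxia vorinostat array 1 (0.0584) and without normoxia solvent array 3 (0.0588), with adjusted p = 0.000484 to 0.218 over its 23 alternatives. UPK1A, a membrane protein of urothelium, was at least 1.976-fold higher in hypoxia with solvent and changed by 2.58 ± 0.17 with vorinostat. The call of its fitted difference (-1.19 ± 0.24, adjusted p = 0.0104) ended with cyclic loess (adjusted p = 0.0529), with median scaling (0.261) and with the 12 arrays of 22Rv1 (0.0837), with adjusted p = 0.000419 to 0.261 over its 23 alternatives. For MYOD1, named for muscle and below background in normoxia with solvent, the call of the fitted difference (-1.01 ± 0.20, adjusted p = 0.00534) ended with no background correction (adjusted p = 0.0656), with the 12 arrays of 22Rv1 (0.0679) and with the authors' processed values (0.0657), with adjusted p = 0.000279 to 0.0679 over its 22 alternatives. NDUFB1, of complex I, fell with solvent (-0.61 ± 0.15, adjusted p = 0.00428) and was not called with vorinostat (0.38 ± 0.15, adjusted p = 0.0745). The call of its difference (-0.99 ± 0.22, adjusted p = 0.0161) ended with median scaling (adjusted p = 0.0694), with the 12 arrays of 22Rv1 (0.0697), without hypoxia solvent array 2 (0.0567), without hypoxia vorinostat array 1 (0.0514), without hypoxia vorinostat array 2 (0.0578), without normoxia solvent array 3 (0.0757) and without normoxia vorinostat array 1 (0.0791), with adjusted p = 0.00137 to 0.0791 over its 23 alternatives.

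DNA replication was the list with the most called differences. Over all genes 9.63% rose and 12.2% fell with vorinostat. With vorinostat 0 rose and 29 fell, leaving 6 not called (median log2 change -1.12), against 0 rises and 21 falls with solvent, and 15 of 35 differences were called, each with the deeper fall under vorinostat. TYMS changed by -1.04 ± 0.12, adjusted p = 1.82e-07 with vorinostat (difference 0.72 ± 0.18, adjusted p = 0.0437), MCM5 by -2.32 ± 0.20 (difference 1.39 ± 0.29, adjusted p = 0.0109), EXO1 by -1.60 ± 0.11 (difference 0.97 ± 0.15, adjusted p = 0.000539) and CDCA7 by -2.32 ± 0.13 (difference 1.03 ± 0.19, adjusted p = 0.00276). Of 26 other HIF target genes 23 rose with solvent and 23 with vorinostat, and of 18 glycolysis genes 14 rose with solvent and 16 with vorinostat, with 1 called difference between them. MT3 changed by 4.89 ± 0.19 with vorinostat, and the fitted difference was not called (0.70 ± 0.27, adjusted p = 0.462).

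**Figure D5:**
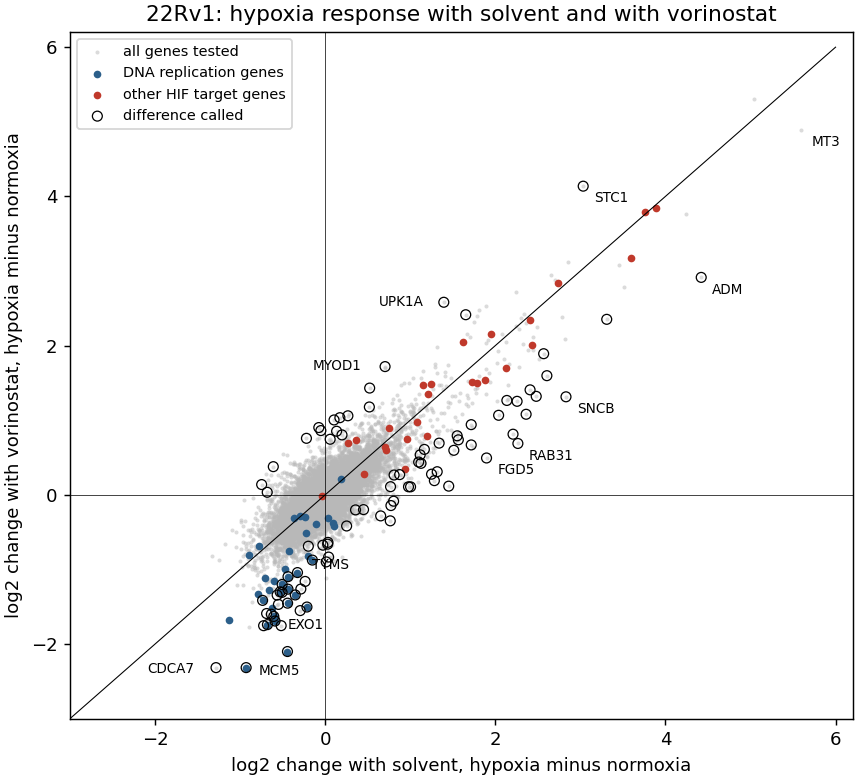
Log2 change of each gene in 22Rv1 (hypoxia minus normoxia) with solvent on the x axis and with vorinostat on the y axis. The line marks equal changes, and black rings mark the 90 genes whose difference was called. Other HIF target genes (red) lie near the line, and DNA replication genes (blue) lie mostly below it, with a median difference of 0.61.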

How the data were processed

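Signal was read on Illumina bead arrays hybridised with biotinylated cRNA. The authors deposited non-normalized probe intensity with a detection p-value per probe, per the file headers, and the submitters' processing notes name BeadStudio 3.1.3.0 as the software. They also deposited a second set of values, processed intensity, used as an alternative, whose normalisation is not given in the sources used here. From the intensities limma's neqc (R 4.3.3, limma 3.58.1) corrected background, added an offset of 16, quantile normalised all 36 arrays and took log2; the deposited values themselves are not on a log2 scale. Probes with a detection p-value below 0.01 on at least 3 of 36 arrays were kept, and a gene was read by its probe with the highest mean. A limma model with 12 group means gave each contrast, adjusted by Benjamini-Hochberg over 12360 genes. Probes were named from the platform annotation: 30113 of 47323 probes carry 1 gene symbol, 8 several and 17202 none. Symbols were updated through Entrez numbers to RefSeq (GRCh38.p14). Other tools were data.table (version 1.17.8), Python 3.11.15, pandas 2.3.3 and matplotlib 3.10.9.

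Named genes were the 12 largest called rises and 12 largest falls with all 3 hypoxia arrays beyond all 3 normoxia arrays, up to 3 called genes with the largest change in each list and the genes that define it, and, for each test of a difference, the 4 largest positive and 4 largest negative among genes also called for hypoxia in 22Rv1. Further list members were named after their values were seen. The members and lists were chosen with earlier results of these data known. Median scaling, other backgrounds, filters and probe rules, array weights, a replicate block, fits on 22Rv1 arrays and leaving out each array were tried. The number of arrays limits the precision. The model was run on simulated data with known changes and independent noise of the size it had fitted itself. That run checks the code only, as it holds no array effects. Probes without a named gene were not used in the comparisons.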

Additional observations from a re-analysis of the deposited data

Results flagged for a closer look

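Differences between hypoxia responses are on the log2 scale, positive where the change of 22Rv1 with solvent was the more positive, and each was tested in the limma model. Against DU145 the response was more positive in MT3 (5.51), COXFA4L2 (3.21), SNCB (2.83), ADM (2.73), HIF1A (2.09), EGLN1 (1.08), VEGFA (1.44), SLC2A1 (1.06), LDHA (0.41), BNIP3 (1.97), P4HA1 (0.70) and KDM3A (0.89), and less positive in AKR1C3 (-2.38), KISS1R (-2.08), ASB9 (-1.88), PDGFRL (-1.63), HMGCS1 (-1.72) and ATF4 (-0.55) (largest adjusted p = 0.0275). Against PC-3 it was more positive in MT3 (5.53), BHLHE40 (2.92), RAB31 (2.75), COXFA4L2 (2.72), HIF1A (1.60), VEGFA (1.14), LDHA (0.98), BNIP3 (2.13), P4HA1 (1.09) and KDM3A (0.80), and less positive in ANGPTL4 (-2.11), AKR1C3 (-1.83), TPBG (-1.72), TMEM158 (-1.48) and ATF4 (-0.53) (largest adjusted p = 0.0384). Against the response with vorinostat in 22Rv1 it was more positive in RAB31 (1.58), SNCB (1.52), ADM (1.51), FGD5 (1.40) and TYMS (0.72), and less positive in UPK1A (-1.19), STC1 (-1.10), MYOD1 (-1.01) and NDUFB1 (-0.99) (largest adjusted p = 0.0437). Values of MT3, SNCB, FGD5, UPK1A, STC1 and MYOD1 are fitted against 22Rv1 normoxia arrays below background, and MT3, SNCB and COXFA4L2 were above background on no solvent array of DU145 or PC-3, so these values are not measured sizes. Apart from these genes, 523 of 4875 detected probes that carry no or several gene symbols were called for hypoxia in 22Rv1, 238 higher and 285 lower, or 10.7%.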

How the results depend on the processing

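Alternatives were run for the hypoxia changes of the leading genes and of the list genes chosen by rule. They were also run for the differences of the genes chosen by their difference. No called change among these turned its sign under any alternative, and the changes of other named genes were not run. For hypoxia in 22Rv1 (2492 calls), the fit on its 12 arrays alone called 3786 genes and array weights 4184. For the difference from DU145 (712 calls), median scaling gave 327, array weights 1327 and a replicate block 1077. For the difference from PC-3 (641 calls), median scaling gave 339 and the replicate block 985. For solvent against vorinostat (90 calls), array weights gave 269. Leaving out 1 array gave 1782 to 1977 calls for hypoxia in 22Rv1, 518 to 671 for the difference from DU145, 474 to 667 for that from PC-3 and 64 to 87 for that from vorinostat. The cause was not tested. The replicate numbers do not pair the samples by their labels, and the deviations of hypoxia and normoxia arrays with the same number correlated at 0.0608, 0.0359 and 0.0312, each the highest for that number. With the replicate block 3089 genes were called for hypoxia in 22Rv1 and 122 for solvent against vorinostat. CCNB1, CDKN1A, HMGCS1 and TYMS, not called here, were called under some alternatives. Signal near background limits the changes of dim genes, which shrank without background correction.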

Other observations

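Further gene groups, chosen after their values were seen and given as values only, also moved in 22Rv1 at 0.2% oxygen. Beside them stand 9.89% of all genes that rose and 10.3% that fell. Of 8 tested genes of the aryl hydrocarbon receptor, which senses aromatic compounds and shares ARNT with HIF, and its targets, 3 rose, 0 fell and 5 were not called (median log2 change 0.29). The risers were the cytochromes CYP1A2 (2.41 ± 0.16, adjusted p = 9.65e-13), CYP1B1 (2.36 ± 0.21, adjusted p = 3.67e-10) and CYP1A1 (1.67 ± 0.23, adjusted p = 2.9e-06). Of 16 genes of the MHC class I pathway, which shows peptides to T cells, 5 rose, 1 fell and 10 were not called (median 0.15). HLA-B (2.04 ± 0.15), HLA-E (0.98 ± 0.11), HLA-C (0.97 ± 0.23) and the activator RFX5 (0.78 ± 0.10) rose, HLA-F was at least 3.325-fold higher with no normoxia array above background, and the peptide transporter TAP1 fell (-0.43 ± 0.09). HLA genes share sequence, so their probes may read several of them. In DU145 3 of these genes rose and 1 fell, and in PC-3 1 rose and 4 fell. The shares over all genes were 7.84% and 6.91% in DU145, and 7.35% and 9.53% in PC-3.

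Of 30 centromere and kinetochore genes, which tie chromosomes to the spindle, 0 rose, 14 fell and 16 were not called (median -0.36). Beside CENPI these included SPC25 (-0.91 ± 0.15, adjusted p = 4.59e-05), CENPK (-0.83 ± 0.14, adjusted p = 5.3e-05) and SGO1 (-0.75 ± 0.12, adjusted p = 4.61e-05). In DU145 2 rose and 0 fell (median 0.03), and in PC-3 0 rose and 1 fell (median -0.02). In 22Rv1 with vorinostat 1 rose and 16 fell (median -0.39). Of all genes, 9.89% rose and 10.3% fell in 22Rv1 with solvent, and 9.63% rose and 12.2% fell with vorinostat.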
